A study of Mus musculus with 4 samples.

Results

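The miR-23/27/24 twin clusters were measured by 5 of the 566 mouse miRNA probes of a NanoString nCounter assay, in which each miRNA is hybridised to a probe with its own fluorescent barcode and the barcodes are counted without amplification. The probes were mmu-miR-23a, mmu-miR-23b, mmu-miR-27a, mmu-miR-27b and mmu-miR-24, found by name among the 599 probes of the table, and no probe for a star or 5′ arm of these miRNAs was found. Total RNA came from wild-type (WT) R1 mouse embryonic stem cells (ESCs) and from R1 ESCs in which the genes for the 3 DNA methyltransferases (DNMTs) Dnmt1, Dnmt3a and Dnmt3b are knocked out (TKO), with 2 samples of each genotype. All 4 samples carry the same culture history in the labels, a medium with leukemia inhibitory factor on gelatin and 4 days of differentiation before RNA isolation. The submitters call the samples of a genotype biological replicates, but only 1 WT line and 1 TKO line were used, so that genotype and cell line cannot be told apart.

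The mouse genome, like the human, carries a pair of paralogous miR-23/27/24 clusters, and each is transcribed as a shared primary transcript from which Drosha cuts the hairpins. The a cluster makes miR-23a, miR-27a and miR-24, and the b cluster makes miR-23b, miR-27b and the same mature miR-24, so the miR-24 probe reads the output of both loci. These miRNAs are best known from blood vessels, blood, muscle and fat: miR-23 represses glutaminase, miR-27 represses the adipogenic receptor PPARγ and the muscle progenitor factor Pax3, and miR-24 represses cell cycle regulators such as E2F2. They are not among the miRNAs that define ESCs, and the comparison of the a with the b cluster asks whether a pair of loci with closely related products differ when the cells lack DNA methyltransferases.

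In the RefSeq annotation of GRCm38.p6 the a cluster spans 404 bases on the plus strand of chromosome 8 (chr8:84208518-84208921), with the precursors in the order Mir23a, Mir27a and Mir24-2. It overlaps no protein-coding gene and lies 2021 bases from Zswim4 and 31966 bases from Nanos3. The b cluster spans 792 bases on the plus strand of chromosome 13 (chr13:63300484-63301275), in the order Mir23b, Mir27b and Mir24-1. It lies inside the span of Aopep, a protein-coding aminopeptidase gene, and ends 59 bases before the span of Fancc, a Fanconi anemia gene. The gaps between neighbouring hairpins were 79 and 56 bases in the a cluster and 154 and 423 bases in the b cluster. On the opposite strand, Mir3074-2 overlaps Mir24-2 and Mir3074-1 overlaps Mir24-1, and neither has a probe in the table. In the study's classification of hairpins by CpG methylation at their edges, Mir23a, Mir27a, Mir24-2 and Mir23b were listed as downstream, and Mir27b and Mir24-1 as upstream. Precursors of both clusters therefore belong to groups that the study called methylated.

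**Figure D1:**
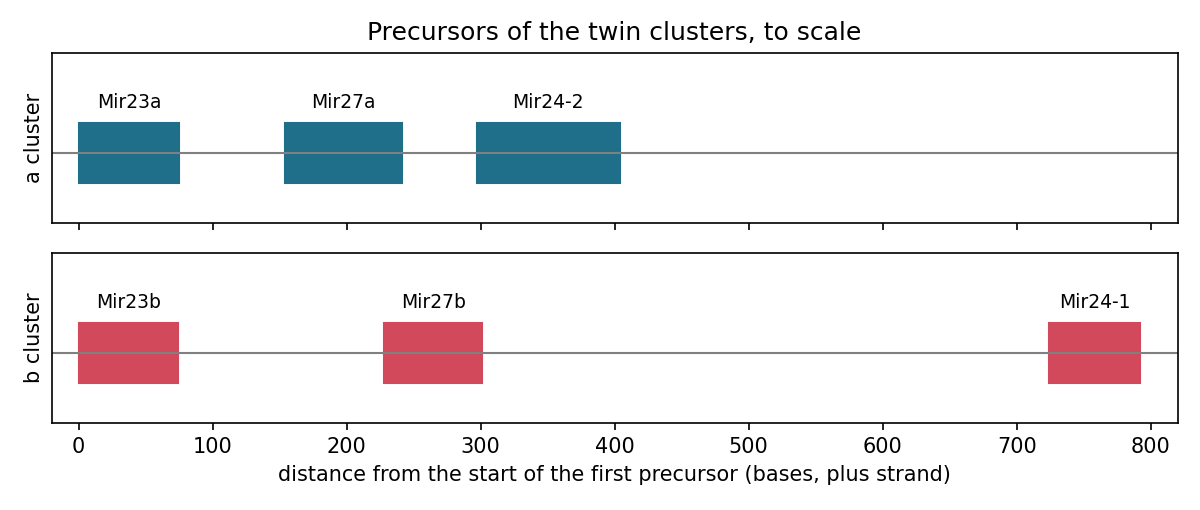
Map of the precursor hairpins of the a cluster (top) and the b cluster (bottom), drawn to scale against the distance in bases from the start of the first precursor. The order of the families is the same in both clusters, and the b cluster is longer (792 against 404 bases) because of the wider gaps on both sides of Mir27b.

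The mature sequences show what each probe reads and which families share targets. A probe name without an arm stands for the 3p arm in the older naming, and the file gives no probe sequence. The sequences are those of RefSeq (GRCm38.p6), 5′ to 3′, with the seed, bases 2 to 8, in capitals; mmu-miR-23b-3p is named only.
mmu-miR-23a-3p: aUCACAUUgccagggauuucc
mmu-miR-27a-3p: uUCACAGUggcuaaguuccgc
mmu-miR-27b-3p: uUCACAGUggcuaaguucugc
mmu-miR-24-3p: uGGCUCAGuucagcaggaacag

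miR-27a and miR-27b share the seed and differ at 1 of 21 positions, C19U counted from the 5′ end of miR-27a. The C at position 19 belongs to the CpG in the miR-27a sequence, which miR-27b lacks. How far the miR-27a probe also captures miR-27b, or the reverse, was not tested, and the same holds for miR-23a and miR-23b. Signal read by the wrong probe of a pair would bring their differences closer together. Beyond the 5, no measured miRNA with a sequence in the table shared bases 2 to 8 with the printed members. miR-673-5p, which shares bases 2 to 7 with miR-27, gave 101 and 88.4 normalized counts in the WT samples, and 83.0 and 80.4 in the TKO samples (log2 difference -0.20, limma adjusted p = 0.501).

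The hairpins of the miR-27 pair and of the precursors of miR-24 are shown because the study concerns CpG methylation at hairpins. The capitals mark each CpG, a C followed by G, which reads the same on both strands.
Mir27a (a cluster): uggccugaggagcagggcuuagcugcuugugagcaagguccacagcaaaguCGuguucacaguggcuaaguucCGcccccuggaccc
Mir27b (b cluster): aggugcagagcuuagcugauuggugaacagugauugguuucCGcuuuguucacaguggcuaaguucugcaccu
Mir24-2 (a cluster): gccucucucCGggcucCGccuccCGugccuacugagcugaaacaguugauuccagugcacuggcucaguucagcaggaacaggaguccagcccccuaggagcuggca
Mir24-1 (b cluster): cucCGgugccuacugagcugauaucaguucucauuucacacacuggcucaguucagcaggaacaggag

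The hairpins of the a cluster held 7 CpGs (2 in Mir23a, 2 in Mir27a and 3 in Mir24-2), or 2.60 per 100 bases. Those of the b cluster held 3, with 1 in each hairpin, or 1.40 per 100 bases. Over the 1005 mouse hairpins of the same table the figure was 2.20 per 100 bases, and 668 of them (66.5%) held at least 1 CpG. These are counts of letters within the hairpins, and the flanking bases were not analysed here.

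Levels are given as normalized counts, which is 2 raised to the log2 value in the authors' nSolver-normalized table. Over all probes, the whole counts before scaling that were recovered from them summed to between 511661 and 613666 per sample. Probes for viral miRNAs (33), which these cells should lack, set the background at their mean plus 2 SD (71.8 normalized counts), and 228 of the 566 mouse probes (40.3%) had a mean above it. Of the 11 ESC-defining miR-290 to miR-295 probes, 8 had a mean above background. The sum over the 11 was high in every sample, at 332117 to 338120 normalized counts in WT and 271498 to 295039 in TKO cells. All 5 miR-23/27/24 probes had a mean above background. The whole counts recovered for them ran from 55 to 1661 per sample. If these are raw counts, counting alone gives an error of 2.45% at the highest and 13.5% at the lowest count.

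In WT cells the normalized counts ran in the order miR-27a, miR-23a, miR-23b, miR-24 and miR-27b, and TKO cells kept this order. Neighbours in the order did not overlap between probes within either genotype. Probes may differ in how well they capture their miRNA, so the order is one of signals and not of molecules.

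Both miRNAs of the b cluster had lower levels in TKO than in WT cells, while those of the a cluster differed by less than the spread between replicates. miR-23b was measured at 456 and 452 normalized counts in the WT samples and at 215 and 238 in the TKO samples. Both TKO samples lay below both WT samples, and the mean of 227 ± 15.9 in TKO cells was 50.0% of the mean of 454 ± 3.0 in WT cells (SD, n = 2). The log2 difference, here always TKO minus WT after adding 1 to each normalized count, was -1.0 (SE 0.15, limma adjusted p = 0.0276), so that miR-23b fell. In bulk RNA, fewer cells with a miRNA and less of it per cell cannot be told apart. Of the 566 mouse probes, limma called 48 (8.48%) in either direction and 24 (4.24%) lower in TKO cells, against 1 of the 5 miR-23/27/24 probes. Among the 228 probes whose mean was above background, the 5 included, it called 40 (17.5%). miR-23b had the 18th lowest difference of the 228.

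miR-27b gave 110 and 107 normalized counts in the WT samples, but 65.2 and 59.0 in the TKO samples. The groups did not overlap, the TKO mean was 57.2% of the WT mean, and both TKO samples lay below the background of 71.8, so that the size of the difference is not resolved. The log2 difference was -0.80 (SE 0.15, limma adjusted p = 0.0528), which missed the threshold of 0.05. With only the 228 probes above background in the fit, limma called 73 of them, and miR-23b had an adjusted p of 0.00261. miR-27b had 0.00617 in that fit, but its mean passed the background only through the WT samples, so that this call is not read as support. With the replicate number as a block, limma called neither (adjusted p = 0.0873 for miR-23b and 0.145 for miR-27b), and with any 1 sample left out it called neither (adjusted p of 0.151 to 0.167 for miR-23b).

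miR-23a was measured at 773 and 810 normalized counts (WT) and at 780 and 774 (TKO). Both TKO values lay inside the WT range, and the log2 difference was -0.026 (SE 0.14, 95% interval -0.41 to 0.36, limma adjusted p = 0.953). miR-27a, the probe with the highest counts of the 5, was measured at 1541 and 1613 normalized counts (WT) and at 1480 and 1569 (TKO). The ranges overlapped, with a log2 difference of -0.049 (SE 0.15, 95% interval -0.44 to 0.34, limma adjusted p = 0.887). The intervals leave out a difference as large as that of miR-23b or miR-27b but do not show equal levels. Dividing each sample by its sum turned both differences positive, to 0.11 for miR-23a and 0.086 for miR-27a, and also moved the median over all mouse probes from -0.12 to 0.0089.

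miR-24, which comes from both clusters, was measured at 186 and 197 normalized counts (WT) and at 152 and 123 (TKO). The groups did not overlap, but the TKO samples differed more from each other than the WT samples did, with means of 192 ± 7.75 and 138 ± 20.4 (SD, n = 2). The log2 difference was -0.48 (SE 0.18, 95% interval -0.95 to -0.0092, limma adjusted p = 0.209) and was not called. Its value lies between those of the a cluster probes and those of the b cluster probes. In all, 3 of the 5 probes had both TKO samples below both WT samples, and this held for 204 of the 566 mouse probes (36.0%). The median difference of the 5 was -0.48, beside -0.12 over all mouse probes and -0.20 over those above background.

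**Figure D2:**
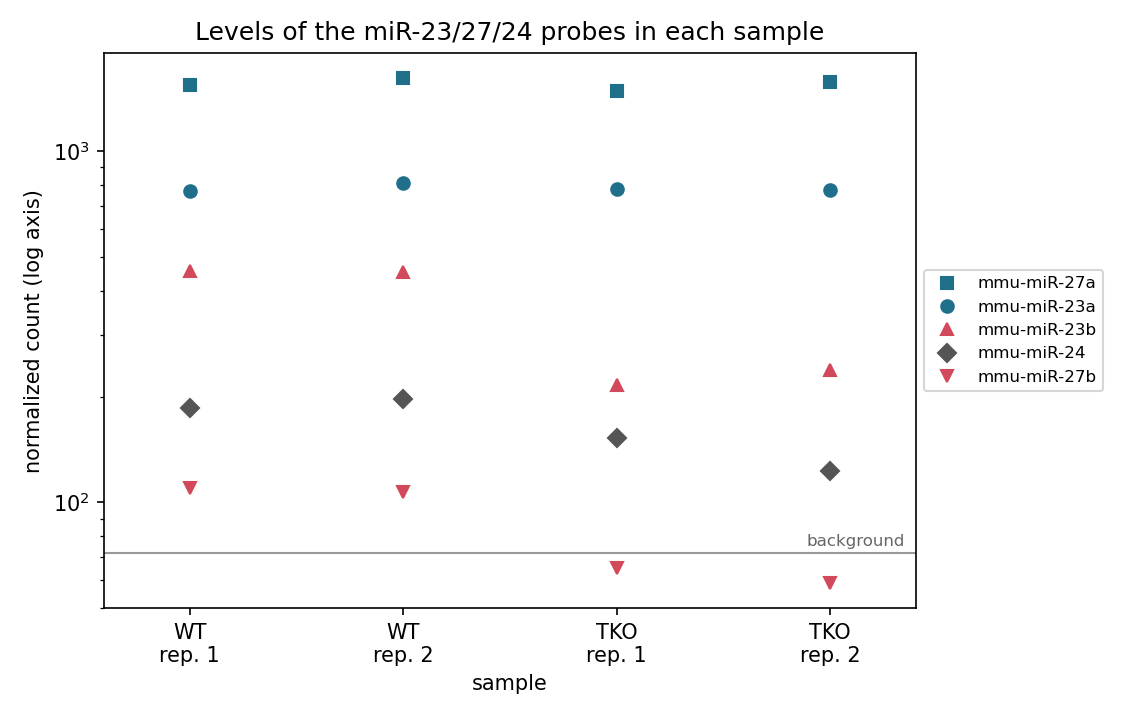
Normalized counts (log axis) of the 5 probes in each of the 4 samples, with 1 point per sample and the background of 71.8 normalized counts as a grey line. The points of miR-27a and miR-23a stay level across genotypes, those of miR-23b, miR-24 and miR-27b are lower in the TKO samples, and miR-27b there lies under the background.

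**Figure D3:**
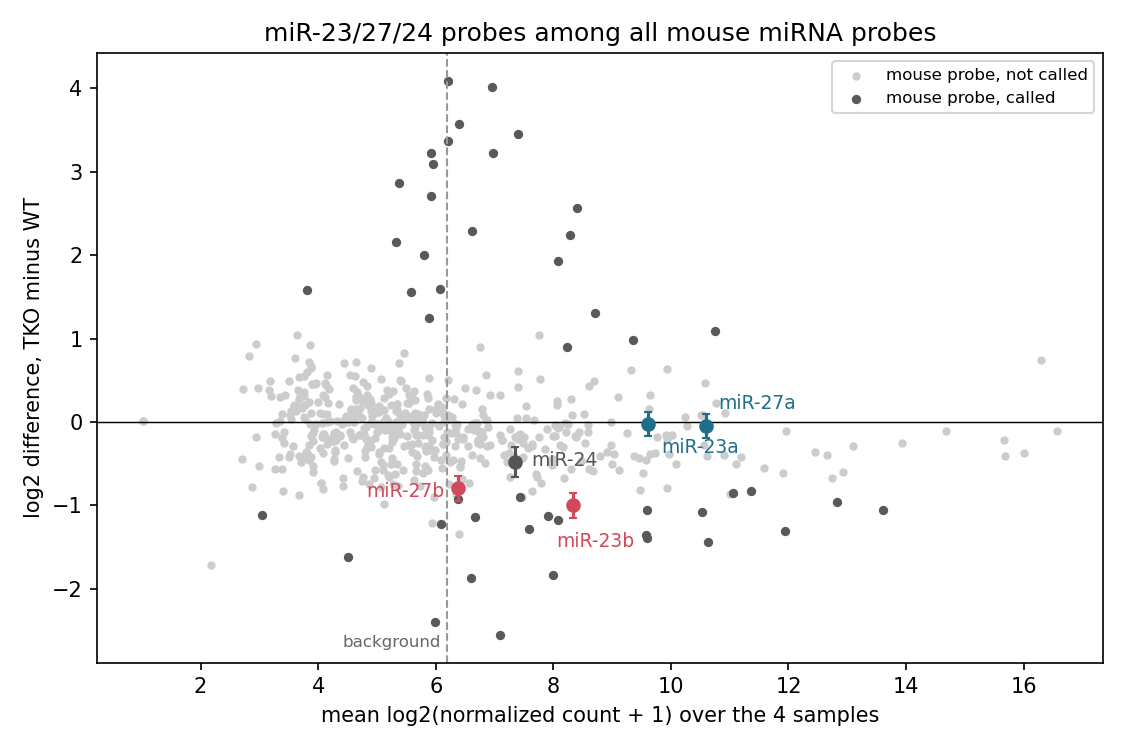
The log2 difference (TKO minus WT) of each of the 566 mouse probes against its mean log2 level over the 4 samples, with called probes in dark grey, the SE from limma as bars on the 5 miR-23/27/24 probes, and the background as a dashed line. The a cluster probes lie near 0, miR-23b and miR-27b lie at -1.0 and -0.80, and miR-24 at -0.48.

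A direct comparison of the clusters was made within each sample, where the difference between the a and the b probe of a family does not depend on how the sample was scaled. For miR-23, log2 of the a probe minus log2 of the b probe was 0.76 and 0.84 in the WT samples and 1.85 and 1.70 in the TKO samples. This gap was wider by 0.97 in TKO cells, against a pooled SD between replicates of 0.087. For miR-27, it was 3.79 and 3.90 in the WT samples and 4.48 and 4.71 in the TKO samples. The measured gap was wider by 0.75, but miR-27b lay below background in both TKO samples, so that the size of this change is not resolved. In both families, every TKO sample had a wider gap than every WT sample.

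Averaged over both families, the change of the a cluster minus that of the b cluster was 0.86, or 1.14 with the mean of the viral probes subtracted. Its size carries the limit on miR-27b. The exact permutation test over the samples gave p = 0.333 for each family and for their mean, two-sided and also after Benjamini-Hochberg adjustment over the 3 comparisons, which is the smallest p that 2 against 2 samples can give. For miR-23, whose probes were above background in all 4 samples, the difference was larger than the spread between replicates, but no difference could pass a threshold of 0.05 in this design. The mean over both probes of a cluster changed by -0.90 for the b cluster and by -0.038 for the a cluster.

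Expressed as a share, miR-23b made up 37.1% and 35.8% of the miR-23a plus miR-23b counts (WT) and 21.6% and 23.5% (TKO). miR-27b made up 6.68% and 6.21% of the miR-27a plus miR-27b counts (WT) and 4.22% and 3.62% (TKO), where its own counts were below background. These are shares of signal from probes that may differ in capture. In both families the b share was lower in each TKO sample than in each WT sample. Because the a probes carry most of the signal, the summed counts of a family changed less than its b member. The miR-23 sum was 1229 and 1262 normalized counts (WT) and 995 and 1012 (TKO), a mean lower by 19.4%. The miR-27 sum was 1651 and 1720 (WT) and 1546 and 1628 (TKO), where the groups did not overlap and the mean was lower by 5.85%. On the log2 scale the change of this mean was -0.087, beside a median difference of -0.12 over all mouse probes. Of the 566 mouse probes, 204 (36.0%) had both TKO samples below both WT samples. miR-27a alone overlapped between genotypes, and miR-27b was below background in both TKO samples, so a fall of the miR-27 family is not resolved.

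**Figure D4:**
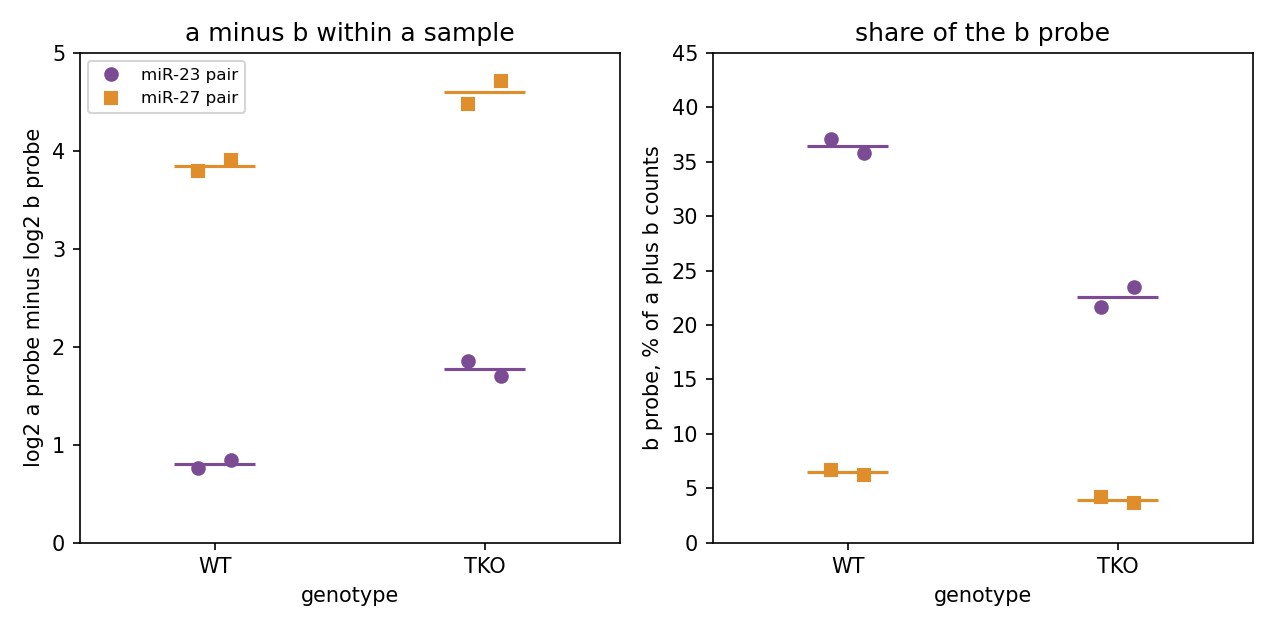
Left, log2 of the a probe minus log2 of the b probe within each sample for the miR-23 and miR-27 pairs. Right, the counts of the b probe as a percentage of the a plus b counts. Points are samples and lines are means of 2 samples, and in both families the gap is wider and the b share lower in TKO cells, where miR-27b lies below background.

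Relative to the mean of the a cluster probes within a sample, miR-24 changed by -0.44. Relative to the b cluster probes miR-24 changed by 0.42, a size that carries the limit on miR-27b, which lay below background in both TKO samples. The sets of samples did not overlap in either measure (exact permutation test, p = 0.333 for both).

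Lists of lineage miRNAs were set beside the clusters. The fibroblast and mesoderm list had 2 of 12 probes called higher in TKO cells and 0 called lower. Over all mouse probes 24 of 566 were called higher, and 18 of the 228 above background. The median log2 difference of the list was -0.066 beside -0.12 over all mouse probes. The called probes of the list were miR-22, with 1149 and 1221 normalized counts in WT samples against 2441 and 2616 in TKO samples (limma adjusted p = 0.0225), and miR-21, with 449 and 476 against 910 and 925 (limma adjusted p = 0.0263). The summed level of this list was 2283 to 2357 in WT and 3885 to 4085 in TKO cells. Of its 12 probes, 5 had a mean above background. The next highest, miR-145, had 240 and 201 normalized counts in WT against 198 and 162 in TKO samples (log2 difference -0.29, limma adjusted p = 0.430). Without miR-22 and miR-21 the other 10 probes summed to 684 and 660 in WT and to 534 and 545 in TKO samples, so the higher sum of the list came from those called. The part of these miRNAs in the b cluster differences was not tested.

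The endothelial miR-126 probes were not called (0 of 2, median 0.18), and their summed level was 378 to 408 normalized counts in WT and 450 to 468 in TKO cells. Of the blood list 1 of 6 was called, miR-150, which fell from 429 and 388 to 167 and 193 normalized counts (limma adjusted p = 0.0238). Over all mouse probes 48 of 566 (8.48%) were called in either direction and 24 (4.24%) lower. The median of the blood list was -0.10. The blood probe with the highest level, miR-142-3p, had 807 and 762 in WT against 1159 and 1278 in TKO samples (limma adjusted p = 0.0944), and the sum of the list was 1294 to 1397 and 1462 to 1639. None of the 4 muscle probes (median -0.14, summed level 67.0 to 110 in WT and 68.2 to 90.0 in TKO cells) had a mean above background. The same held for the liver probe miR-122 (-0.020, 12.6 to 17.1 and 11.8 to 17.8). Of the 11 ESC-defining probes 8 were above background and 0 were called, with a median of -0.22. Its probe with the highest level, miR-294, differed by -0.11 (limma adjusted p = 0.733). The next highest of the list, miR-295 and miR-293, differed by -0.37 and -0.41 (limma adjusted p = 0.232 and 0.212). For each of these, both TKO samples lay below both WT samples.

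The miRNAs with the most similar pattern were found among the other mouse probes above background, as those whose deviations from their own mean over the 4 samples lay closest to those of the cluster mean. For the b cluster these were miR-15b (root mean square difference 0.034 on the log2 scale), miR-19a (0.034) and miR-25 (0.054). The b cluster mean carries the limit on miR-27b, which lay below background in both TKO samples. Between the TKO samples miR-23b was 215 and 238 and miR-27b was 65.2 and 59.0. These opposite deviations make the mean flatter there than either probe. Probes chosen for closeness to the b cluster mean must share its fall. miR-15b went from 2846 and 2858 normalized counts in WT to 1549 and 1612 in TKO samples. miR-19a went from 10112 and 10068 to 5173 and 5166, and miR-25 from 3512 and 3533 to 1908 and 2059. These falls, and their limma adjusted p values of 0.0403, 0.0263 and 0.0454 in the same order, follow from the choice and are not read as support. For the a cluster the closest were miR-181c (0.015), miR-709 (0.031) and miR-1951 (0.041). None of them was called, which follows from choosing probes close to a mean that changed little.

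miR-181c, at levels close to the background of 71.8, had 80.3 and 84.5 normalized counts in WT against 78.1 and 79.3 in TKO samples, a log2 difference of -0.065. Its precursor Mir181c lies 29557 bases from the a cluster on chromosome 8. The precursor of its neighbour miR-181d, Mir181d, is 29731 bases away, and the probe that reads it together with miR-181b had 134 and 131 in WT against 117 and 102 in TKO samples (limma adjusted p = 0.355). Likeness over 4 samples is a description of these libraries, and many probes can share a pattern of so few points.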

How the data were processed

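The authors isolated total RNA, ran the nCounter miRNA assay, normalized with the nSolver software (version not given in the sources used here) and deposited log2 values for 4 samples. The values were turned back to normalized counts, which are whole multiples of 1 factor per sample (0.971 to 1.07), so that the raw count behind each value was recovered (100% whole within 0.05 in each sample). A pseudocount of 1 was added and log2 taken, which understates changes of low probes. limma 3.58.1 (lmFit and eBayes, R 4.3.3) was fitted to all 566 mouse probes, with Benjamini-Hochberg adjustment and a threshold of 0.05. P-values measure a difference against the spread between these samples. In limma, eBayes draws the variance of each probe towards a value shared over all probes in the fit. The SE and p of a probe therefore do not rest on its own values alone. Intervals are at 95%. Values recovered from low counts carry the largest counting error.

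Members, lists and tests were chosen with earlier results of these data known. All 5 members are named, together with up to 3 of the highest probes of a list, probes sharing seed bases, and the 3 closest probes above background for each cluster. The miR-181b and miR-181d probe was added after values were seen. The groups of precursors are those of the study. On simulated data with 200 of 566 probes changed by a factor of 2, limma recovered 74.0%, and 5.73% of its calls were false. That is a larger share of probes than the 48 called in the data. Besides counting noise, the simulation used 1 noise level for all probes, taken from probes with higher counts and then somewhat reduced. The recovery in the data can therefore differ. The deviations of the replicates numbered 1 correlated at -0.094 between genotypes across probes, and no label says that a number marks a shared day or batch. Tables and permutation tests used scipy 1.17.1, pandas 2.3.3 and numpy 2.4.6 in Python 3.11.15, and plots used matplotlib 3.10.9.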

Additional observations from a re-analysis of the deposited data

How the results depend on the processing

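One alternative, subtracting the mean of the viral probes, was added after seeing the data. The difference of miR-23b stayed negative in all 14 alternatives and was called in 9 of the 10 that kept all samples. The exception was the replicate block (difference -1.0, adjusted p = 0.0873 from limma). Without 1 sample the difference lay between -1.07 and -0.93. The difference of miR-27b stayed negative. It was called with a pseudocount of 10 (-0.72) and with only probes above background (-0.80). It was also called with an intensity trend and robust variance (-0.80) and with voom on the recovered counts (-0.80). The call with only probes above background is not read as support, since the mean of miR-27b passed the background only through the WT samples. Without 1 sample the difference of miR-27b lay between -0.87 and -0.73, and with the viral mean subtracted it was -1.25 (adjusted p = 0.146 from limma). Those 4 settings gave 2 called probes of the 5, beside 57 of 566, 73 of 228, 89 of 566 and 85 of 566 probes called in all, and the replicate block and each set of 3 samples gave 0.

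miR-23a changed sign to 0.11 under sum scaling, 0.047 under median scaling, 0.0061 under viral probe scaling and 0.0078 without WT replicate 2, with -0.060 as the lowest value without 1 sample. miR-27a changed sign to 0.086 under sum scaling and 0.024 under median scaling, and without 1 sample lay between -0.091 and -0.0067. miR-24 was not called in any alternative, and its difference without 1 sample lay between -0.63 and -0.33. The a cluster mean was 0.097 under sum scaling and 0.035 under median scaling, and between -0.071 and -0.0040 without 1 sample. The b cluster mean was -0.85 with a pseudocount of 10, -1.17 with the viral mean subtracted, -0.77 under sum scaling, -0.83 under median scaling and -0.87 under viral probe scaling, and between -0.91 and -0.88 without 1 sample. The change of the a cluster minus that of the b cluster was positive in every alternative run, between 0.81 and 0.91 without 1 sample and 1.14 with the viral mean subtracted.

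Over all mouse probes, limma called 73 with only the 228 probes above background, 89 with an intensity trend and robust variance, 85 with voom on the recovered counts, 30 with the replicate block and 31 with the viral mean subtracted. Without 1 sample it called 14 without WT replicate 1, 9 without WT replicate 2 and 0 without either TKO sample. With the unadjusted p, between 101 and 114 probes passed 0.05 in these 4 fits. The signal over background limits miR-27b most. The causes of these changes were not tested.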
